A study of Mus musculus with 13 samples.

Results

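The enzymes described here add or remove methyl and acetyl groups on histones and, for some of them, on other proteins. Their genes were taken from the deposited liver table by name: protein-coding rows whose symbols begin with Setd, Kmt, Kdm, Ezh, Suv39, Nsd, Ehmt, Hdac, Sirt, Kat, Smyd or Prmt, leaving out Setdb2. These were 77 of the 11779 rows and of the 11396 protein-coding rows. RNA was sequenced from the livers of 6 Balb/c mice. The Liver LL35 ASO group (3 mice) had been injected with a GalNAc-conjugated mix of antisense oligonucleotides (ASOs) against LL35, a long non-coding RNA of mouse also named Falcor. The Liver Luc ASO group (3 mice) had been given a GalNAc-conjugated ASO against firefly luciferase, a gene that mice do not have, and all livers were taken on day 5. GalNAc is a sugar that carries the ASO into hepatocytes, no group was left without an ASO, and age and sex are not given in the sources used here. The labels give the dose as 150 mg/kg for each LL35 ASO, whereas the methods of the study give doses as totals of the mix, so the dose behind the libraries was not settled here. Another 7 libraries of the study, from the hepatocyte line AML12, were not analysed here.

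For each gene, the table gives 1 level, the authors' mean normalized count over the compared liver libraries, in which both ASO groups are averaged. It gives no value for a single mouse, so the spread between mice, the depth of each library and the error of each level are unknown, and no difference was tested. The columns of the authors' own comparison of LL35 ASO with Luc ASO livers were not used. The values below therefore say how abundant each transcript was in these livers as a whole, and nothing of how LL35 knockdown changed it. Where genes are compared with each other, the mean normalized count was divided by the length of the gene's exons in kb. In the text below, "per kb" alone always means this level. "By coding length" and "per kb of coding sequence" mean the same count divided by the gene's longest coding sequence. That count still holds the reads of untranslated exon bases, so genes with many such bases stand higher by coding length.

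Histone methyltransferases place methyl groups on lysines or arginines from S-adenosylmethionine, and each has a preferred residue. Demethylases of the LSD type use FAD and those of the JmjC type use iron and 2-oxoglutarate. Acetyltransferases take the acetyl group from acetyl-CoA, and it is removed by zinc-dependent histone deacetylases or by sirtuins, which consume NAD. These cofactors are intermediates of the metabolism for which the liver is known. H3K4 methylation and histone acetylation mark active promoters and enhancers, H3K36 methylation marks transcribed gene bodies, and H3K9, H3K27 and H4K20 methylation are best known from silenced chromatin.

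The tissue label was checked against marker genes. All 8 hepatocyte markers were listed, with 10070 to 1217470 normalized counts, the highest being albumin (Alb). Its level per kb was 1992 times that of the most abundant histone enzyme gene. All 6 Kupffer cell markers (120 to 1954 normalized counts), all 6 endothelial markers (121 to 2171) and all 6 stellate cell markers (51.8 to 1823) were listed as well. Of 5 cholangiocyte markers 2 were listed, and of 5 lymphocyte and neutrophil markers 3, the latter at 18.6 to 23.0 normalized counts. A bulk liver level therefore sums several cell types, and more cells of a type cannot be told apart from more RNA per cell. The share of each histone enzyme transcript that came from hepatocytes was not tested.

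Among the listed protein-coding genes, the histone enzyme genes were transcripts of middling abundance. Their mean normalized counts ran from 17.4 for Kdm8 to 3716 for Kmt2d, with a median of 285 and quartiles of 167 and 802. The median of all protein-coding rows was 244. No count in the table lies under 15.6, so Kdm8 stood close to the bottom of what is listed. Genes with lower counts are absent from the medians and percentiles given here. Of the 77 genes, 74 had at least 50 normalized counts, and the other 3 were Kdm8, Smyd1 (40.2) and Smyd4 (42.4).

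Counts followed exon length. Across the 77 genes, Spearman's rho of the mean normalized count with exon length was 0.68, and across all protein-coding rows it was 0.21 (genes are not independent replicates, and all values share the same libraries). Their median exon length was 5973 bases, against 4597 for all protein-coding rows. After division by length, rho among the 77 fell to 0.23. The level per kb ran from 6.03 (Smyd3) to 261 (Kdm5c), a 43.3-fold range, against a 213-fold range of the counts.

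Per kb, the median histone enzyme gene stood at 47.9, and the median protein-coding row at 52.1. Of the 77 genes, 35 (45.5%) lay above that protein-coding median, although 43 (55.8%) lay above it before division by length. On the percentile scale of all protein-coding rows the 77 genes reached from 5.46 to 87.4, with quartiles of 32.5, 47.4 and 64.9. The ends of the scale held few of them: 12 lay under the 25th percentile, 7 at or above the 75th, and 0 at or above the 90th. The 10 highest genes held 32.4% of the summed level.

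**Figure D1:**
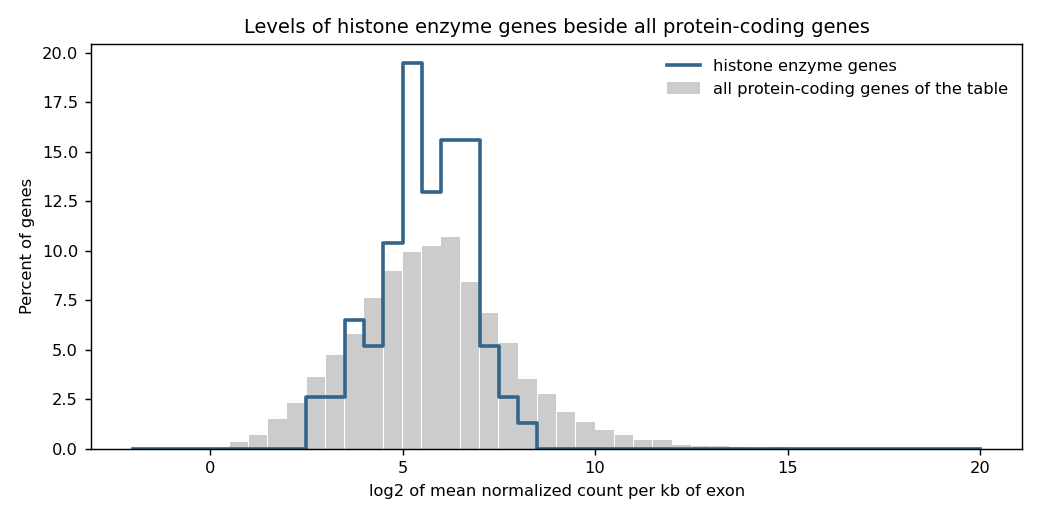
Share of genes (percent) in bins of the log2 level, the mean normalized count per kb of exon, for the 77 histone enzyme genes (line) and the protein-coding rows with a length (grey bars). The line lies within the middle of the grey distribution, with no gene above the 90th percentile.

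The genes were grouped into 19 classes by residue and enzyme type. The 5 classes with the highest median levels were the JmjC H3K27 demethylases (106 per kb), the H3K36 methyltransferases (103), the H3K9 methyltransferases (81.3), the H3K4 methyltransferases (79.9) and the SET-domain genes without an agreed histone site (79.2). The lowest medians were those of the SMYD methyltransferases (9.78), the H3K27 methyltransferases (25.3), the class IIa deacetylases (27.3) and the protein arginine methyltransferases (31.2). In 16 of the 19 classes the highest gene exceeded the lowest more than 2-fold, so a class median hides much of the range. The order of the classes also rests on the length used. With coding length the cytosolic and mitochondrial sirtuins ranked 1 and the H3K27 demethylases, falling from 2.03 to 1.04 times the protein-coding median, ranked 6. The median of the H3K4 methyltransferases went from 1.53 to 0.70 times the protein-coding median, that of the H3K9 methyltransferases from 1.56 to 0.92, that of the GNAT acetyltransferases from 1.17 to 0.72, and that of the H4K20 methyltransferases from 0.92 to 1.38. The H3K36 methyltransferases (1.98 and 1.47) stood high and the SMYD genes (0.19 and 0.26) lowest by both lengths.

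**Figure D2:**
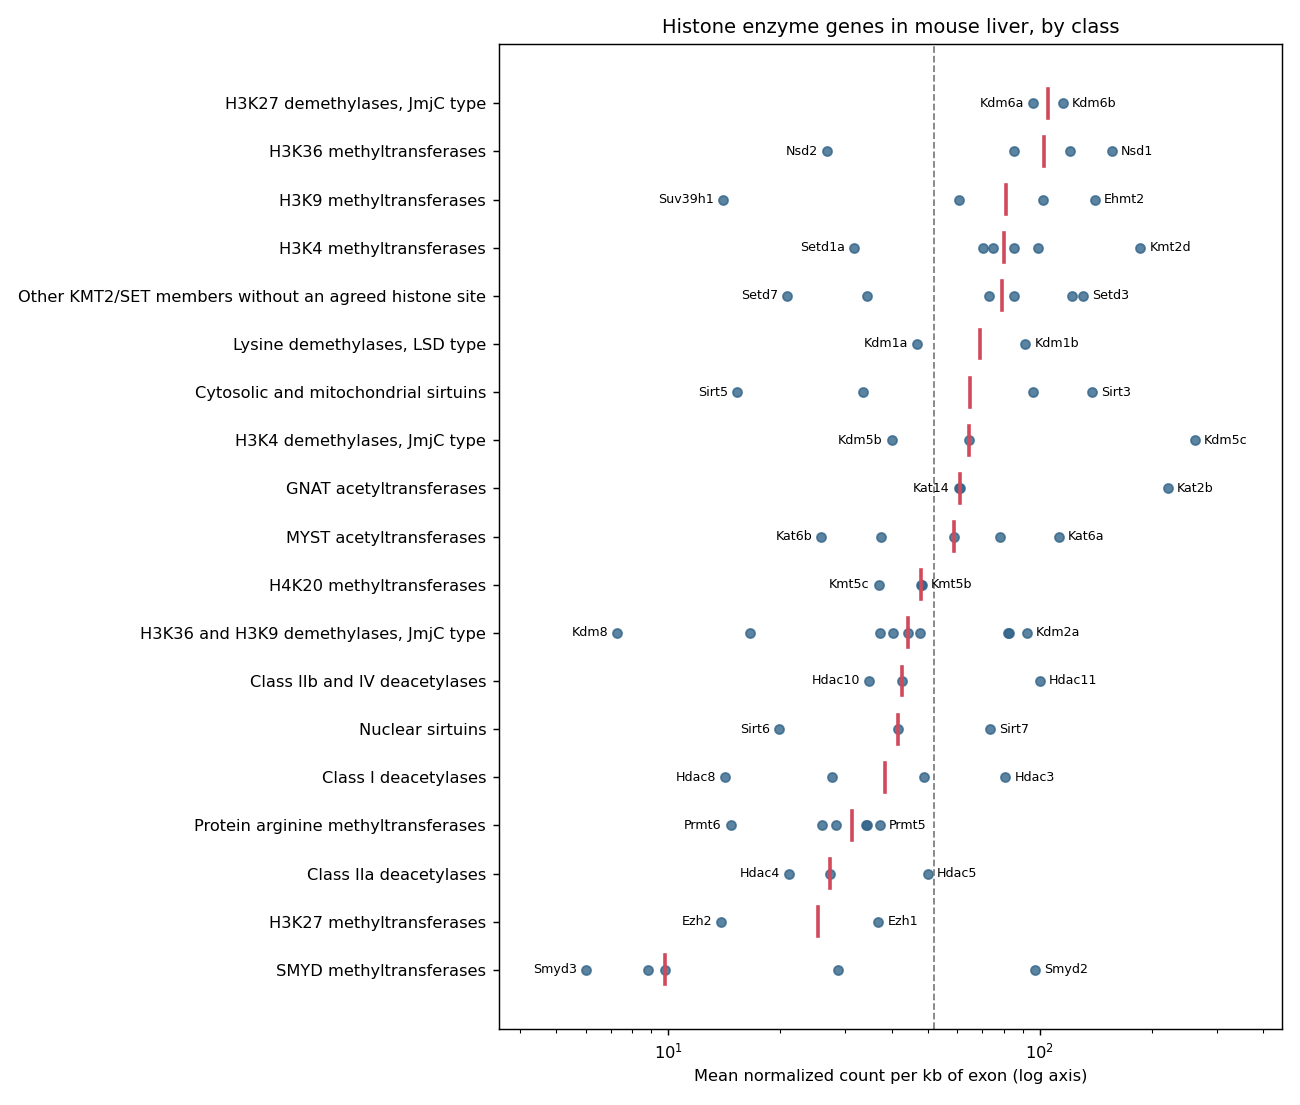
Level of each of the 77 genes in mouse liver (mean normalized count per kb of exon, log axis), 1 row per class, with red bars at class medians and a dashed line at the protein-coding median of 52.1. The highest and lowest gene of each class are named, and the classes are ordered by median, from 106 for the H3K27 demethylases to 9.78 for the SMYD genes.

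All 6 genes of the H3K4 methyltransferases were listed, and 5 lay above the protein-coding median, but with coding length only 1, Kmt2d. Kmt2d, which encodes MLL4 and methylates enhancers together with its relative MLL3, had the highest count of all 77 genes (3716) and stood at 186 per kb. Kmt2c, the gene of MLL3, had 2005 normalized counts and 98.8 per kb. Both genes have many exon bases, 19931 and 20291 over all their annotated transcripts. With the basic transcript set of GENCODE these lengths are 19830 and 14967. Of the 77 genes they ranked 1 and 3 by count but 3 and 14 per kb. Kmt2b (MLL2, a promoter enzyme that binds menin) stood at 85.0 per kb and its relative Kmt2a (MLL1) at 70.2. Of the SET1 enzymes, which place most trimethylation at active promoters, Setd1b stood at 74.8 per kb and Setd1a at 31.6. Other annotated genes share 52.3% of the exon bases of Setd1a, nearly all on its own strand, and reads that fall in more than 1 gene cannot be assigned, so its level is uncertain.

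The gene with the highest level per kb removes H3K4 methylation. Kdm5c, an X-linked JmjC demethylase of trimethylated H3K4, had 1856 normalized counts and 261 per kb, the highest level of the 77, although it ranked 5 by coding length, where Sirt3 led, and Sirt3 also stood above it with the basic transcript set of GENCODE (479 against 278). Its relatives Kdm5a (914 normalized counts, 64.6 per kb) and Kdm5b (661 normalized counts, 39.9 per kb) stood lower. Kdm5d, their Y-linked relative, is not among the rows analysed here. Of the LSD type, which works on mono- and dimethylated H3K4 and pairs with CoREST in the case of LSD1, Kdm1b stood at 91.4 per kb and Kdm1a (LSD1) at 46.7. Summed over genes, the 6 methyltransferases of H3K4 reached 547 per kb and the 5 demethylases 504, a ratio of 1.09, which became 0.74 when coding length was used in place of exon length.

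For H3K27, the balance of transcripts lay on the side of the demethylases. Ezh1 and Ezh2 encode the alternative catalytic subunits of Polycomb repressive complex 2 (PRC2), Ezh2 being known from dividing cells and Ezh1 from resting ones. Ezh1 had 273 normalized counts and stood at 36.8 per kb, and Ezh2 had 92.7 and stood at 13.9. Neither reached the protein-coding median. The demethylases Kdm6a (UTX, X-linked) and Kdm6b (JMJD3) had nearly equal counts of 803 and 802, and stood at 95.8 and 115 per kb. The sum of the 2 methyltransferases was 50.6 per kb against 211 for the 2 demethylases, a ratio of 0.24, or 0.46 with coding length. Kdm7a (82.5 per kb), which also works on H3K27 but was classed with the H3K36 and H3K9 demethylases, is outside this sum. Of the 8 listed genes of other PRC2 subunits, 6 lay above the protein-coding median, or 5 by coding length. The lowest were Mtf2 (31.3 per kb) and Jarid2 (33.8), and the highest Rbbp4 (107) and Rbbp7 (215), histone-binding proteins that several complexes share. The core subunits Eed and Suz12 stood at 60.4 and 92.6 per kb.

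Ezh1 exceeded Ezh2 2.65-fold per kb of exon and 2.93-fold per kb of coding sequence. With exons of the basic set the ratio was 1.36, so its size rests on which transcripts the length is taken from. The promoters of this pair are shown with that of Smyd1, a gene of the low end described further on, to let their base composition be compared. The sequences are from RefSeq on GRCm38.p6, read 5′ to 3′ from 250 bases before to 50 after an annotated start, and capitals mark CG pairs, the sites of DNA methylation in mammals.
Ezh1 promoter window, GRCm38.p6 chr11:101226414-101226713, minus strand: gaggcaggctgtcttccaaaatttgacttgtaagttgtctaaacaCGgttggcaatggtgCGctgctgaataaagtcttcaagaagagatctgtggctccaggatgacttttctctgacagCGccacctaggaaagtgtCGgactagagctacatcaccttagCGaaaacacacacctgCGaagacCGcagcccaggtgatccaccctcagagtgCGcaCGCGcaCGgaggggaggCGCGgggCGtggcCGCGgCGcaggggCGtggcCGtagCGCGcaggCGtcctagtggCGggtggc
Ezh2 promoter window, GRCm38.p6 chr6:47594981-47595280, minus strand: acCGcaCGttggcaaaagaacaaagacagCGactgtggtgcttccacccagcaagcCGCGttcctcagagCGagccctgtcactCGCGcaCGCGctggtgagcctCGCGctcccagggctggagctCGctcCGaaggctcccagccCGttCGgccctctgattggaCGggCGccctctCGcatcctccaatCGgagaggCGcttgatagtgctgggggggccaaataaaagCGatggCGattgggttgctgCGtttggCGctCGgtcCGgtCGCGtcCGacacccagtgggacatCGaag
Smyd1 promoter window, GRCm38.p6 chr6:71262232-71262531, minus strand: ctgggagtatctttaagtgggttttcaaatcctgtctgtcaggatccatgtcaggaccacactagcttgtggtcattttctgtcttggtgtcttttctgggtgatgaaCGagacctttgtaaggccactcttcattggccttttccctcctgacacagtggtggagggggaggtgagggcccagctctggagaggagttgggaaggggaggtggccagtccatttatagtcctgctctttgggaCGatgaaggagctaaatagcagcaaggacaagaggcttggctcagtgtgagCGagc
The Ezh1 window holds 23 CG pairs, the Ezh2 window 31 and the Smyd1 window 3. A TATAAA match on either strand is present in the Smyd1 window only of these 3. A match describes letters and not a working site. The Smyd1 window does not stand for the low genes as a group, since the windows of Smyd4 and Kdm8 hold 34 and 13 CG pairs. Whether CG pairs go with the level was not tested.

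RefSeq promoter windows of 300 bases were found for 61 of the 77 genes (82 windows, since some genes have several starts). The median window held 22.5 CG pairs (quartiles 15.2 and 34.0), and the median over 11772 windows of 9156 listed protein-coding genes was 20.0 (quartiles 11.0 and 29.0). At least 10 CG pairs were present in 72 of the 82 windows (87.8%), against 77.1% of all windows. TATAAA was matched in 2 windows (2.44%, against 7.57% of all), those of Hdac8 and Smyd1. CCAAT was matched in 36 windows (43.9%, against 37.3%) and GGGCGG in 53 (64.6%, against 61.4%), each on either strand. Windows of 1 gene overlap in some cases, and the shares are given as a description with no test.

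**Figure D3:**
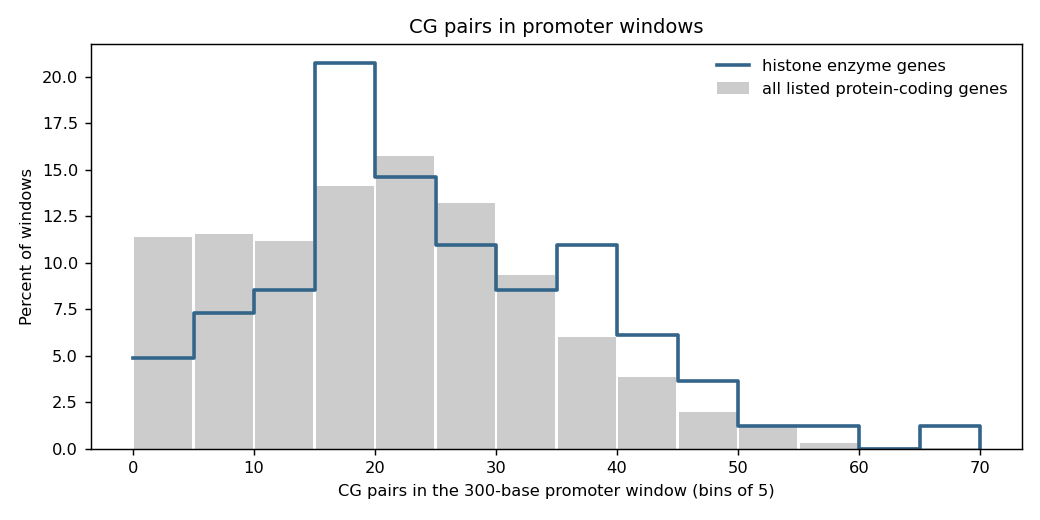
Percent of promoter windows in bins of CG pairs per 300 bases, for 82 windows of histone enzyme genes (line) and 11772 windows of all listed protein-coding genes (grey bars, which include the former). The medians are 22.5 and 20.0 CG pairs, and most windows of both kinds hold at least 10.

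Among the H3K9 methyltransferases, Ehmt2 (G9a) stood at 141 per kb and Ehmt1 (GLP) at 102; their proteins work as a heterodimer that places mono- and dimethylation. Setdb1, which trimethylates H3K9 at silenced retroelements, stood at 60.7 per kb. Suv39h1, the enzyme of pericentromeric heterochromatin, was far lower with 74.2 normalized counts and 14.1 per kb. Its relative Suv39h2 is not among the rows analysed here. The demethylases of H3K9 and H3K36 formed the largest class, with 9 listed genes and 3 of them above the protein-coding median, or 2 by coding length. Kdm2a, an H3K36 demethylase with a CpG-binding domain, led it with 1333 normalized counts and 92.2 per kb, whereas Kdm2b, which recruits a variant Polycomb complex 1, stood at 16.6 per kb. Kdm7a, a demethylase of dimethylated H3K9 and H3K27, stood at 82.5 per kb and Kdm4a, a demethylase of trimethylated H3K9 and H3K36, at 82.1, above Kdm4b (47.7) and Kdm4c (37.2). The H3K9 demethylases Kdm3b and Kdm3a stood close together at 44.1 and 40.4 per kb. Kdm8, whose JmjC domain is better known for hydroxylation, had the lowest count of all (17.4) and 7.29 per kb.

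Of the 4 H3K36 methyltransferases, all except Nsd2 lay above the protein-coding median, by exon and by coding length. Nsd1, which dimethylates H3K36, had 2729 normalized counts and 156 per kb. Setd2, the enzyme that trimethylates H3K36 behind elongating RNA polymerase II, had 1294 normalized counts and 120 per kb. By coding length Setd2 stood at only 1.01 times the protein-coding median. Nsd3 stood at 85.5 per kb and Nsd2 at 26.8, which put Nsd1 5.82-fold above Nsd2, or 3.07-fold by coding length. Of the H4K20 enzymes, Kmt5b (48.1 per kb) and Kmt5a (47.9), the monomethyltransferase of this residue, had almost the same level, and Kmt5c stood at 36.8. None of these lay above the protein-coding median, but 2 of the 3 did by coding length.

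The SET-domain genes without an agreed histone site ranged more widely. Setd3, whose protein methylates a histidine of actin, stood at 131 per kb and Kmt2e, a relative of the MLL genes with no established methyltransferase activity, at 122. Setd5 had 1569 normalized counts and 85.5 per kb. Setd6, which methylates the NF-κB subunit RelA, stood at 72.9 per kb, Setd4 at 34.3 and Setd7, an enzyme with many non-histone substrates, at 20.9. The placing of Setd7 rests on the length used, since its coding sequence is 1098 bases of 10813 exon bases. By coding length it moved from percentile 24.7 to percentile 55.7, with reads of its untranslated bases still in the count. Setd6 moved the other way, from percentile 59.9 to 34.8. Of the 77 genes, 11 had percentiles by exon and by coding length that differed by over 20.

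The SMYD class was split. Smyd2, a lysine methyltransferase of p53 and other proteins, stood at 96.9 per kb, although 30.0% of its exon bases overlap an annotated gene on the opposite strand. Smyd5 stood at 28.6 per kb. The other members were among the 4 lowest of the 77 genes per kb, with Smyd4 at 9.78, Smyd1, a gene of heart and skeletal muscle, at 8.83, and Smyd3 at 6.03. The arginine methyltransferases were low and close together. All 6 listed genes lay under the protein-coding median, with Prmt5 (the main symmetric enzyme) at 37.0 per kb, Prmt9 at 34.2, Prmt1 (the main asymmetric enzyme) at 34.2, Prmt7 at 28.2, Prmt3 at 25.9 and Prmt6 at 14.7. The first 5 of these lay within 1.43-fold of each other and no order among them is drawn.

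Of the acetyltransferases, Kat2b (PCAF) was the second most abundant of all 77 genes per kb, with 1079 normalized counts and 222 per kb. Its paralog Kat2a (GCN5) had 212 normalized counts and 60.9 per kb, a 3.64-fold difference per kb of exon and 5.20-fold per kb of coding sequence. Kat14, a subunit of the ATAC complex, stood at 60.6 per kb. In the MYST family, Kat6a (MOZ) stood at 113 per kb and its paralog Kat6b (MORF) at 25.8. Kat7 (HBO1, an H3K14 acetyltransferase) stood at 78.2 per kb, Kat8 (MOF, the H4K16 acetyltransferase) at 58.8 and Kat5 (TIP60) at 37.5. All 3 GNAT genes and 3 of 5 MYST genes lay above the protein-coding median, but by coding length only 1 and 2 did.

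The zinc-dependent deacetylases lay mostly below it, 2 of 10 being above by either length. In class I, Hdac3, the catalytic subunit of the NCoR complexes, had 327 normalized counts and stood highest at 80.8 per kb. Hdac2 stood at 48.9 per kb, Hdac1 at 27.6 and Hdac8 at 14.2. The class IIa genes, whose proteins shuttle between nucleus and cytoplasm, were low, with Hdac5 at 50.1 per kb, Hdac7 at 27.3 and Hdac4 at 21.2, and Hdac9 is not among the rows analysed here. Hdac11, the only class IV enzyme, stood at 99.9 per kb, above the class IIb genes Hdac6, a tubulin deacetylase, at 42.5 and Hdac10 at 34.7.

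The sirtuins were led by a mitochondrial enzyme. Sirt3, the main mitochondrial deacetylase, had 825 normalized counts and 138 per kb. The other mitochondrial sirtuins were much lower, Sirt4 at 33.5 per kb and Sirt5, a desuccinylase, at 15.3. Sirt3 exceeded Sirt5 9.01-fold per kb of exon, the largest ratio of the 19 paralog groups in which more than 1 gene was listed, and 10.0-fold per kb of coding sequence. Sirt2, a mainly cytosolic deacetylase, stood at 96.1 per kb. Of the nuclear sirtuins, Sirt7, which is enriched in the nucleolus, stood at 73.5 per kb, Sirt1 at 41.4 and Sirt6 at 19.9, with 55.5 normalized counts for the latter. Summed over genes, the 8 acetyltransferases chosen by prefix reached 656 per kb, and the 13 deacetylases and nuclear sirtuins 582. The ratio was 1.13 and turned to 0.75 with coding length, so that no direction is drawn from it. Acetyltransferases with other gene names, Crebbp (132 per kb) and Hat1 (28.5) among them, are outside this sum. The 13 include the tubulin deacetylase Hdac6.

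Paralogs were compared in 20 groups, of which 19 had more than 1 listed gene. In each, the genes highest and lowest per kb of exon were taken as the pair, and the same pair was then compared by the other lengths. In 10 groups the pair differed more than 2-fold both per kb of exon and per kb of coding sequence, and these are described as apart. Beside those given above, Kdm2a exceeded Kdm2b 5.55-fold by exon and 8.32-fold by coding length. Kdm5c exceeded Kdm5b 6.54-fold by exon but 2.79-fold by coding length. Sirt7 exceeded Sirt6 3.69-fold and 5.67-fold, and Setd1b exceeded Setd1a 2.37-fold and 3.64-fold. Because other annotated genes share 52.3% of the exon bases of Setd1a, its ratios and its place among the 10 groups are uncertain. Kat6a exceeded Kat6b 4.36-fold by exon length, and its 2.22-fold by coding length and 2.06-fold with the basic set lay close to the limit, as did Kdm4a over Kdm4c (2.21-fold and 2.17-fold by exon and coding length). In 8 of the 10 groups the ratio also stayed over 2 with the basic transcript set, the exceptions being Ezh1 over Ezh2 and Kdm4a over Kdm4c (1.88). In the other 9 groups the pair was not apart by this rule. Among them, Hdac5 exceeded Hdac4 2.36-fold by exon and 1.26-fold by coding length, but Hdac7 was the lowest of that group by coding length, 2.03-fold under Hdac5, so that 11 groups pass when the pair is picked again under each length. The 9 groups also include Kmt2d over Kmt2c (1.89-fold by exon and 1.63-fold by coding length). Some pairs were under 2-fold by exon length but over it by coding length. These were Hdac2 over Hdac1 (1.77-fold and 2.28-fold), Kdm1b over Kdm1a (1.96-fold and 2.19-fold) and Kmt5b over Kmt5c (1.31-fold and 2.55-fold). The order itself turned with coding length between Ehmt2 and Ehmt1, to a ratio of 0.96, and between Kdm6b and Kdm6a, to 0.87. Sirt4 and Sirt5 also changed places, at 80.4 and 89.0 per kb of coding sequence, so that Sirt4 was the lowest mitochondrial sirtuin by that length.

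**Figure D4:**
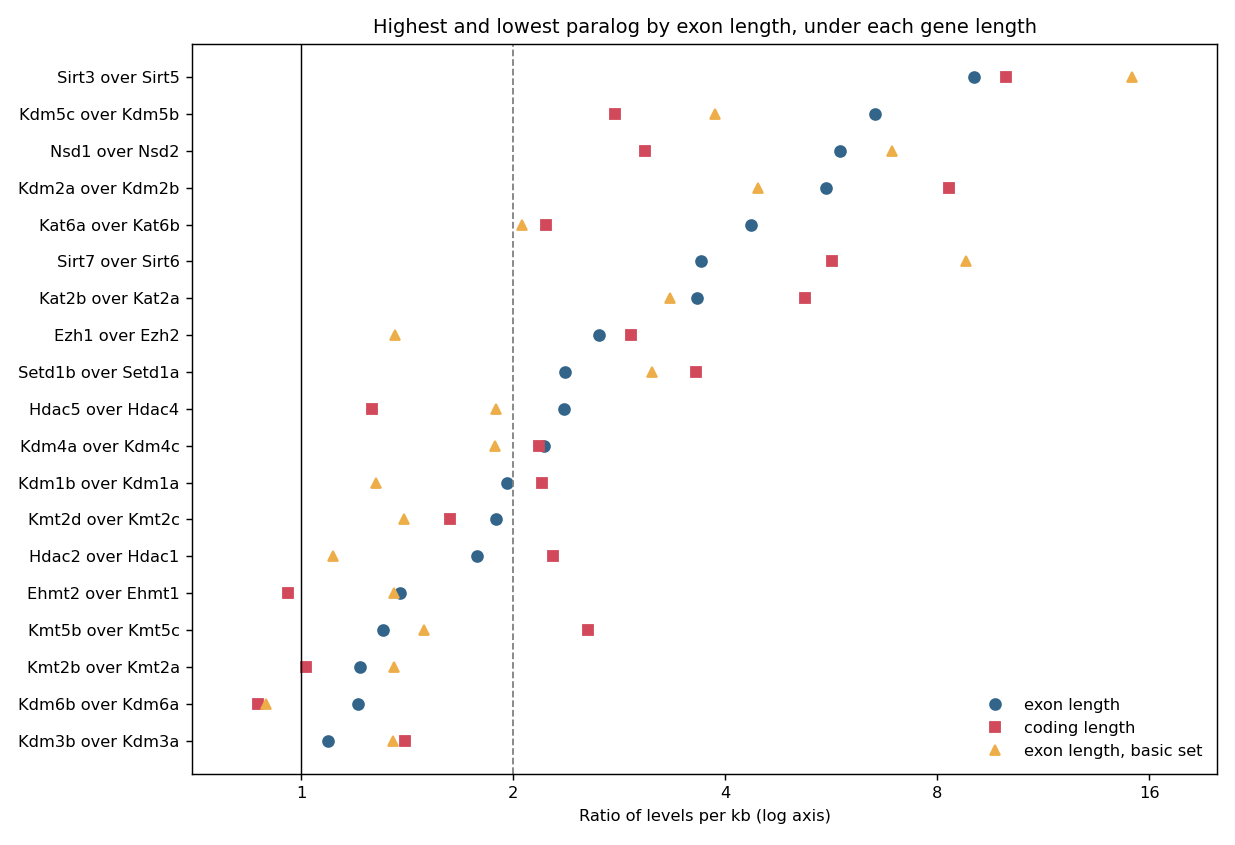
Ratio of levels (log axis) in 19 paralog groups, for the pair that is highest and lowest by exon length, computed from exon length (circles), coding length (squares) and the exon length of the basic transcript set (triangles), with lines at 1 and at the limit of 2. Sirt3 over Sirt5 lies farthest right at 9.01, 10.0 and 15.1, and the ratios of Ehmt2 over Ehmt1 and Kdm6b over Kdm6a cross 1.

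Some of these enzymes work in complexes, and 5 partner lists were read. The last of these lists holds histone enzymes with other gene names rather than complex partners. Of the 74 genes in these lists 71 were listed, and 48 of them lay above the protein-coding median, beside 35 of the 77 genes. By coding length these numbers were 36 and 27. The 71 include 13 histone enzymes with other gene names, of which 8 lay above the protein-coding median, or 7 by coding length. The 20 genes of the deacetylase complexes were the most abundant, with a median of 92.9 per kb and 16 above the protein-coding median. Their highest members were Chd4 (252 per kb) and Chd3 (208), the ATP-dependent remodelers of NuRD. The lowest were Rcor3 (20.3) and Mta3 (25.3). The levels of 17 of the 20 lay above that of the catalytic subunit Hdac1 and of 17 above that of Hdac2, and with coding length 19 and 15 of them did.

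The H3K4 methyltransferase complexes (COMPASS) had a median of 79.1 per kb over 10 listed genes, beside 79.9 for their enzymes. By coding length these stood at 1.07 and 0.70 times the protein-coding median. Wdr82 (159) and Hcfc1 (115) led them, and Ash2l (28.8) and Paxip1 (33.9) were lowest. The 20 genes of acetyltransferase complexes had a median of 44.2 per kb, from Ing4 (7.79) and Mrgbp (23.7) to Msl1 (120) and Msl2 (127). The 8 listed PRC2 partners had a median of 60.9 per kb. Histone enzymes with other gene names, which the choice by prefix leaves out, had a median of 71.0 per kb over 13 listed genes. Crebbp (132 per kb), the acetyltransferase CBP, and Ash1l (127), an H3K36 methyltransferase, were the highest of these. The lowest were Mecom (1.73) and Hat1 (28.5), a histone acetyltransferase of newly made H4.

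**Figure D5:**
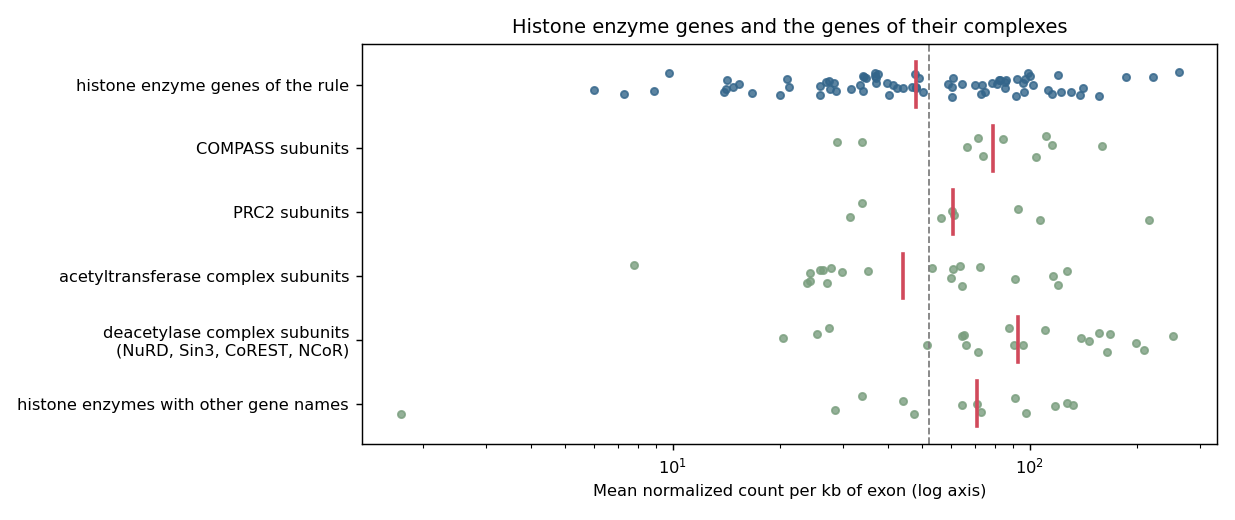
Level per kb of exon (log axis) of the 77 histone enzyme genes and of the listed genes of 5 partner lists, each point a gene, shifted up or down at random for visibility, with red bars at medians and a dashed line at the protein-coding median. The medians run from 44.2 for acetyltransferase complexes to 92.9 for deacetylase complexes, with 47.9 for the histone enzyme genes.

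Of the 77 genes 5 (6.49%) are on the X chromosome, against 2.85% of the protein-coding rows. These are Kdm5c, Kdm6a, Hdac6, Hdac8 and Suv39h1. They do not share a level: they span nearly the whole range, from 261 per kb for Kdm5c to 14.1 for Suv39h1. RefSeq has 84 protein-coding symbols that fit the rule, and the 7 that are not among the rows analysed here are Ezhip, Hdac9, Kdm4d, Kdm5d, Prmt2, Prmt8 and Suv39h2. Setd9 is not among the rows analysed here either.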

How the data were processed

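According to the labels and the methods of the paper, total RNA of the livers was depleted of rRNA, made into directional libraries and aligned by the authors with STAR 2.5.3a, counted on Ensembl genes and normalized by the RLE method of DESeq2. The genome build is not given in the sources used here. The deposited signal used here is the authors' mean normalized count, 1 value per gene over the compared liver libraries. The other 5 numeric columns hold the authors' own comparison (fold change, its standard error, the Wald statistic and p-values) and were not used, so no test between groups was possible, and groups, set from the sample titles, entered as pooled by the authors. Depth per sample is unknown.

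Exon length is the union of all exons of a gene in GENCODE M21 (GRCm38), matched by Ensembl identifier for 11754 of 11779 rows, and coding length is its longest coding sequence there, used because no protein sequences were at hand. Percentiles are among the 11385 protein-coding rows with a length. Paralogs were described as apart over a ratio of 2 by both lengths. Alternatives changed the length, the background and the minimum count (50). All 77 genes may be named, with the 2 highest and 2 lowest of each partner list. Eed and Suz12 were named after their values were seen. The genes, lists and groups were chosen with earlier results of these data known. Promoter windows are from RefSeq. Python 3.11.15, numpy 2.4.6, pandas 2.3.3, scipy 1.17.1 and matplotlib 3.10.9 were used, and the steps were tested on simulated data.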

Additional observations from a re-analysis of the deposited data

How the results depend on the processing

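Levels between genes depend on the length they are divided by. With coding length the median percentile of the 77 genes was 40.5, with exons of the basic transcript set (an alternative chosen after the data were seen) 50.5, among genes of all types 47.8, and with at least 50 normalized counts 39.0, beside 47.4 as reported. The number of the 77 genes above the protein-coding median was 27 with coding length and 39 with the basic set, beside 35. Coding length moved 9 of 19 class medians, taken relative to the protein-coding median, by over 1.5 times, no scaling by length moved 9, the minimum count 1 and the basic set 0. Coding length moved 7 of 19 paralog ratios by over 1.5 times and the basic set moved 7. Paralog ratios over 2 numbered 11 by exon length, 13 by coding length and 8 with the basic set for the pair fixed by exon length, and 14 and 9 when the pair was picked again under each length, an alternative added after the data were seen. None of the 5 partner list medians moved by over 1.5 times under either length. The ratio of summed levels moved by over 1.5 times with coding length for H3K27 methylation, to 0.46, and for acetylation, to 0.75. For H3K4 methylation it went from 1.09 to 0.74, a move under 1.5 times that still crossed 1. With the basic set the ratios were 0.31 for H3K27 methylation, 0.84 for acetylation and 1.02 for H3K4 methylation. No paired analysis was possible because the table holds 1 pooled mean per gene and no value per mouse, and for the same reason no mouse could be left out.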
